A study of Mus musculus with 4 samples.

Results

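The ventricles of mice that lack P2Y6, a receptor for the nucleotide UDP, were compared between treatment with isoproterenol, an agonist of beta-adrenergic receptors, and treatment with saline. The study sequenced messenger RNA from heart ventricles of C57Bl6/J mice of 8 to 12 weeks that were WT or P2Y6-null (P2Y6 KO, here KO). The mice of the treated groups were given 50 mg/kg/day of isoproterenol, and those of the control groups saline solution, as 1 intraperitoneal injection a day over 7 days. Each of the 4 groups (WT saline and WT isoproterenol, KO saline and KO isoproterenol) held 1 library, and the sources used here give neither how the null allele was made nor how many hearts stand behind a library. The KO pair, KO isoproterenol against KO saline, is described across the 13041 of 46603 genes in the deposited table whose mean was at least 1 CPM over the 4 libraries. CPM stands for reads per 1000000 reads counted in a library. This limit on the level used no difference between libraries, although a gene that was high in 1 library alone could pass through that library. Just inside it lay 143 genes with a mean of 1 to 1.1 CPM, and just outside it 159 genes with a mean of 0.9 to under 1 CPM.

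Sustained stimulation of beta-adrenergic receptors makes cardiomyocytes enlarge, brings back part of the fetal gene program (natriuretic peptides, fetal actin and stress proteins of the sarcomere) and lowers the use of fatty acids as fuel. Muscle that is lost under this load is replaced by scar: cardiac fibroblasts turn into cells that secrete collagen and other matrix proteins, and macrophages enter the wall. P2Y6 is a receptor coupled to G proteins that answers to UDP released from stressed or damaged cells.

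A level below is the deposited CPM. A fold is the ratio of reads between the treated and the saline library after TMM scaling (a correction for the make-up of a library), followed by its 95% counting interval. A gene counted as higher, or as lower, if all of its interval lay beyond 1.5-fold. Since each group held 1 library, the pair has neither a replicate check nor a p-value. The intervals cover counting error only and compare these libraries, not the conditions.

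The 4 libraries held 18771198 to 25637369 reads in the listed genes, the fewest in KO isoproterenol. P2ry6 itself stood at 5.11 CPM in WT saline, 5.89 CPM in WT isoproterenol, 0.566 CPM (13 reads) in KO saline and 0.533 CPM (10 reads) in KO isoproterenol, and totals per gene do not show which exons the KO reads came from. The defining transcripts of working myocardium were abundant in every library (Myh6 22219 to 30569 CPM, Tnnt2 7173 to 7779 CPM), while the atrial light chain Myl7 stood at 49.1 to 77.0 CPM. Xist held 1 to 5 reads and the Y-linked gene Ddx3y 72.8 to 85.7 CPM in the 4 libraries. Transcripts of the mitochondrial genome took 26.3% of the reads in KO saline and 22.5% in KO isoproterenol, against 24.9% and 28.9% in the WT pair.

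Many genes differed between the treated and the saline KO library. In the KO pair 934 genes were higher with isoproterenol (7.16% of those tested) and 577 were lower (4.42%), against 117 higher (0.897%) and 103 lower (0.79%) in the WT pair. The largest ratios were upward: the whole interval lay beyond 4-fold for 109 higher and 22 lower genes, and beyond 16-fold for 17 higher and 2 lower. Higher genes were the more frequent among genes of low level, 12.8% against 3.34% lower at a mean of 1 to 3 CPM, and lower genes among the most abundant, 12.3% against 7.49% higher at 100 CPM or more. The mean includes KO isoproterenol, so genes high in that library alone could enter the lowest level through it. The share of higher genes there follows in part from this. Protein-coding genes made up 914 of the higher and 521 of the lower genes, and of 150 lincRNAs tested 8 were higher and 19 lower. The share of higher among all counted genes was 61.8%, or 80.2% when libraries were scaled by their total counts alone (1342 higher, 10.3%, and 332 lower, 2.55%). That scaling moves every log2 ratio of the KO pair up by 0.185, so small downward ratios lean on the scaling and are given with their values under both where the count changes much.

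**Figure D1:**
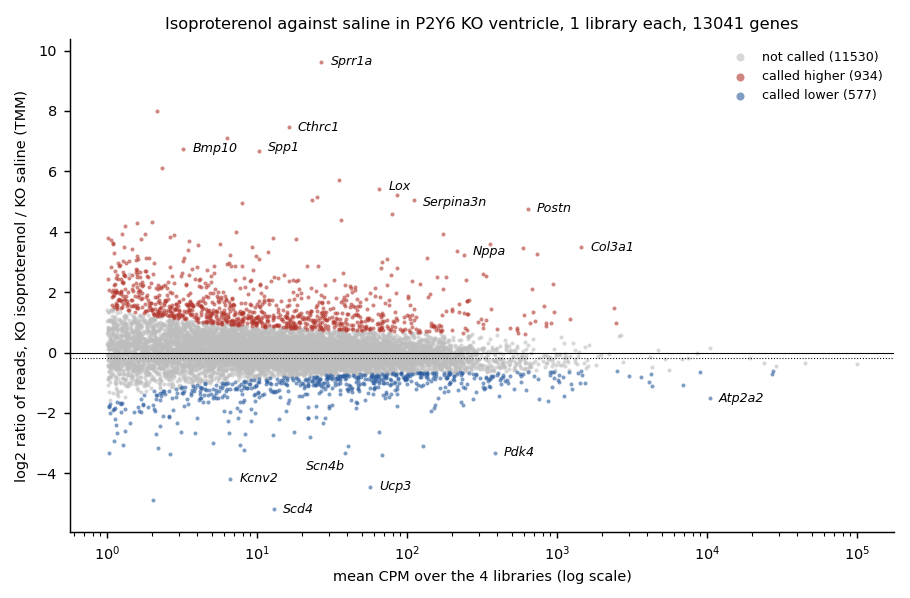
Log2 ratio of reads, KO isoproterenol over KO saline after TMM scaling, against the mean CPM over the 4 libraries on a log scale, with 1 point per gene. The 934 higher genes (red) and 577 lower genes (blue) are those whose 95% counting interval lies beyond 1.5-fold; the dotted line marks no change under total-count scaling.

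The 30 higher genes whose interval bound lay farthest from no change held many genes for secreted and matrix proteins. The first of them was neither: Sprr1a, a small proline-rich protein of cell envelopes, held 2 reads in KO saline and 1838 in KO isoproterenol, 791-fold (273 to 8170.0), and stood at 0.156 and 9.07 CPM in the WT pair. Serpinb1a, an intracellular protease inhibitor, was 53.0-fold higher (40.2 to 72.8). Lox, the enzyme that crosslinks collagen and elastin, stood at 4.66 CPM in KO saline and 227 CPM in KO isoproterenol, against 4.84 and 24 CPM in the WT pair. Tnc, the matricellular protein tenascin C of wounds, went from 2.09 to 85.5 CPM, 35.6-fold (27.0 to 49.0), and Timp1, an inhibitor of matrix metalloproteinases, from 2.13 to 80.7 CPM, 32.9-fold (25.0 to 45.2). In both, the WT isoproterenol library (10.8 and 8.4 CPM) lay between the saline libraries and the treated KO library. Ltbp2, a binding protein of elastic microfibrils related to those that hold latent TGF-beta, was 23.9-fold higher (21.0 to 27.6), and Cemip, a protein of hyaluronan breakdown, rested on 2 reads in KO saline and 159 in KO isoproterenol. Cilp, a matrix protein of cartilage and of scarred myocardium, stood at 30.5 and 527 CPM, 15.2-fold higher (14.1 to 16.4). C1qtnf3, a secreted protein of the C1q and TNF family, went from 3 to 448 reads.

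Genes of muscle stood among the same 30, with others, such as Star and Nrip3, whose cell of origin whole ventricle does not show. Nmrk2, a muscle kinase that makes NAD from nicotinamide riboside, was at 4.66 CPM in KO saline and 111 CPM in KO isoproterenol (20.9-fold, 17.3 to 25.8), and at 4.13 and 23.9 CPM in the WT pair. Tnnt3, the troponin T of fast skeletal muscle, held 6 and 120 reads in the KO pair, 19.9-fold (9.60 to 59.8), while it stood at 0.585 and 0.724 CPM in the WT pair. Star, the protein that carries cholesterol into mitochondria, was 11.3-fold higher (8.52 to 15.5). Nrip3 had 0 reads in KO saline and 118 in KO isoproterenol, which is at least 42.3-fold higher against a floor of 3 reads. Bmp10, a growth factor of atrial and trabecular myocardium, rests on 1 read in KO saline, below the 1.37 CPM of WT saline. Its ratio was 107 (28.3 to 6373), from a saline level that differed between the genotypes. Of these 30 genes, 25 were also counted as higher in the WT pair, and all 30 had a WT ratio above 1.

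The 30 lower genes farthest from no change held enzymes of lipid and sugar metabolism and channel subunits. Fbp2, the fructose-bisphosphatase of muscle, was 6.21-fold lower (4.98 to 7.88) and Angptl4, a secreted inhibitor of lipoprotein lipase, 6.36-fold (4.76 to 8.81). Angptl4 started from a higher level in KO, 15 CPM in KO saline against 4.80 CPM in WT saline. Lgals4, a galectin, went from 68.5 to 9.06 CPM, and Gnb3, a G protein beta subunit, from 16.1 to 1.92 CPM. Retnla, a secreted product of alternatively activated macrophages, held 82 reads in KO saline and 7 in KO isoproterenol, 10.2-fold lower (5.05 to 27.9). The list also held the channels Clcn1 and Scn4a and the acetylcholine receptor subunit Chrna2, which were 6.44-fold (4.66 to 9.30), 4.53-fold (3.91 to 5.28) and 8.85-fold (4.68 to 21.0) lower. Of the 30, 22 were counted as lower in the WT pair too and 29 had a WT ratio below 1.

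**Figure D2:**
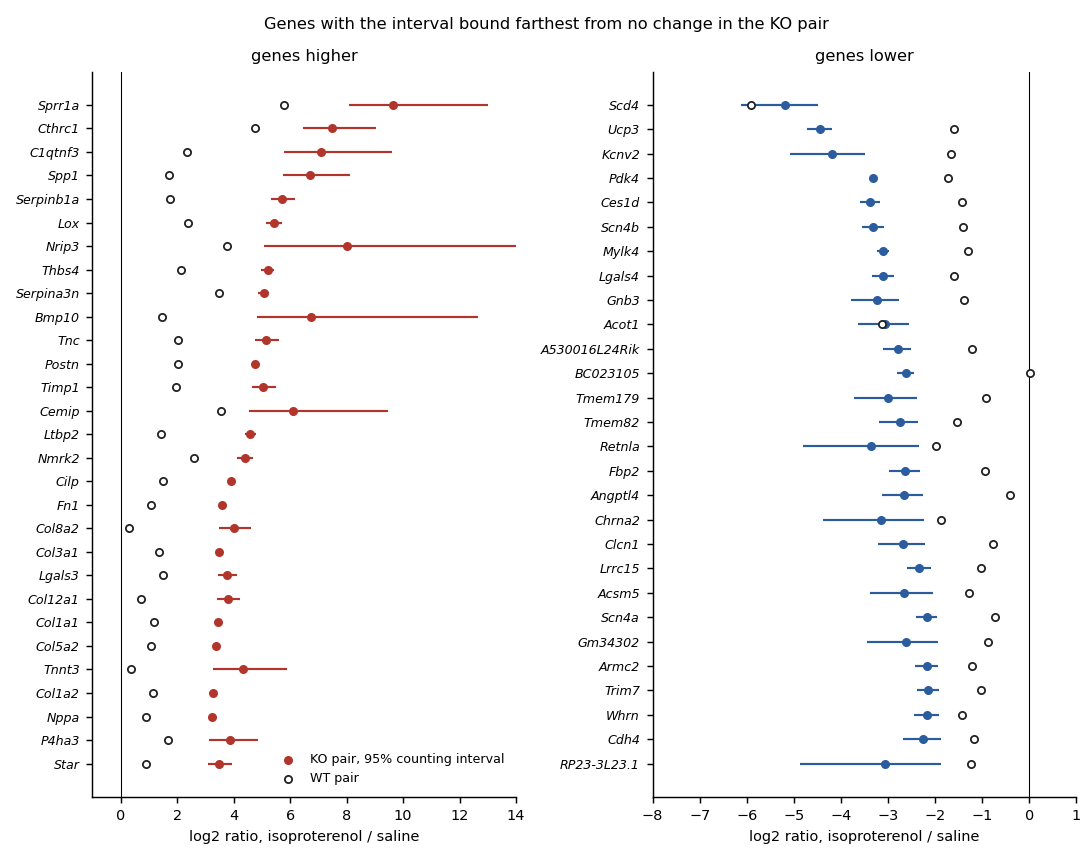
Log2 ratio of isoproterenol over saline for 29 of the 30 higher and 28 of the 30 lower genes whose interval bound nearest to no change lay farthest from it in the KO pair (filled points, bars for the 95% counting interval), beside the WT pair (open points). The open points lie nearer to 0 than the filled ones for all 29 higher genes; Nrip3, with 0 reads in KO saline, is a fitted point whose interval has no upper end.

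Collagens, the fibres of scar, were higher almost as a class. Of 7 fibrillar collagens tested (8 listed) 6 were higher and 0 lower, with a median log2 ratio of 3.26 against -0.01 over all genes tested. In the WT pair 5 of the 7 were higher and 0 lower, with a median of 1.06. Col1a2 stood at 180.4 CPM in KO saline and 1963 CPM in KO isoproterenol (9.56-fold, 9.26 to 9.88), and at 254 and 537 CPM in the WT pair. Col5a1 and Col5a2, which seed fibrils, were 5.67-fold (5.36 to 6.0) and 10.3-fold (9.67 to 10.9) higher. Col11a1, below the level limit, had 0 reads in KO saline and 51 in KO isoproterenol, and Col11a2 alone of those tested stood nearly level (3.44 and 3.73 CPM). Of 16 other collagens 13 were higher, with a median of 1.70, against 4 in the WT pair (median 0.48). Col8a1, a short-chain collagen of injured vessels and heart, went from 37.3 to 371 CPM (8.75-fold, 8.15 to 9.41). The fibril-associated Col12a1, Col14a1 and Col16a1 were 13.9-fold, 5.90-fold and 6.21-fold higher. The basement membrane collagens Col4a1 and Col4a2 were 2.55-fold and 2.06-fold higher, whereas Col4a3 (6.10 and 7.67 CPM) and Col4a4 (14.9 and 19.2 CPM) were not counted.

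The machinery that modifies and crosslinks collagen followed unevenly, with 12 of 21 genes higher, 0 lower and a median of 0.92. Every lysyl oxidase but Loxl4 was higher: beside Lox, Loxl3 was 7.22-fold (6.13 to 8.59), Loxl2 4.24-fold (3.82 to 4.73) and Loxl1 2.97-fold (2.77 to 3.20) higher. P4ha3, a minor subunit of collagen prolyl hydroxylase, went from 0.566 to 9.80 CPM, while the major subunits P4ha1 (44.5 and 77.4 CPM; counted as higher with total-count scaling) and P4ha2 (50.6 and 60.8 CPM) were not counted. The propeptide protease Adamts2 was 4.69-fold higher (4.32 to 5.10), the enhancer of procollagen cleavage Pcolce 3.51-fold (3.29 to 3.75) and the collagen chaperone Serpinh1 2.42-fold (2.33 to 2.52). In the WT pair 2 of the 21 were counted as higher and the median was 0.19.

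Elastic fibres, matricellular proteins and proteoglycans moved the same way. Of 13 elastic fibre genes 10 were higher (median 1.64), against 3 in the WT pair (median 0.33). Eln, elastin, stood at 39.8 CPM in KO saline and 234 CPM in KO isoproterenol, 5.16-fold higher (4.80 to 5.55). Its levels in the WT pair were 72.2 and 86.4 CPM. The microfibril genes Fbn1, Mfap4 and Mfap5 were 5.25-fold, 7.98-fold and 8.50-fold higher, while Fbln1 (79.2 and 99.2 CPM) and Efemp1 (7.58 and 4.79 CPM) were not counted. Of 20 matricellular genes, whose products tune how cells read the matrix, 14 were higher (median 2.05), against 7 in WT (median 0.49). Sparc, a collagen-binding protein, went from 369 to 2033 CPM (4.85-fold, 4.74 to 4.97), and Ctgf, a fibrogenic growth factor, from 45.9 to 203 CPM (3.88-fold, 3.62 to 4.16). The thrombospondins Thbs1, Thbs2 and Thbs3 were 4.41-fold, 2.0-fold and 3.23-fold higher beside Thbs4. Not counted were Cyr61, Nov, Smoc1, Smoc2, Sparcl1 and Tgfbi, of which Nov was the lowest in ratio (8.01 and 6.87 CPM). Of 12 proteoglycan genes tested (14 listed) 9 were higher, against 4 in the WT pair. Bgn, biglycan, was 4.31-fold higher in KO (4.20 to 4.42), Fmod, fibromodulin, 3.94-fold (3.38 to 4.63) and Dcn, decorin, 1.54-fold (1.5 to 1.58).

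Proteases of the matrix and their inhibitors split. Of 21 genes 12 were higher and 1 lower, against 4 and 0 in the WT pair. Mmp14, a membrane-bound metalloproteinase, stood at 16.2 and 88.1 CPM in the KO pair (4.76-fold, 4.26 to 5.35) and Mmp2, which it activates, at 68.4 and 299.5 CPM (3.85-fold, 3.64 to 4.08). Adam12 and Adamts12, proteases of scar fibroblasts, were 12.9-fold (7.88 to 24.3) and 7.32-fold (5.18 to 10.9) higher. The 4 tissue inhibitors differed in direction: Timp4, the inhibitor most typical of heart, was 2.59-fold lower (2.19 to 3.08), at 22.7 CPM in KO saline and 9.96 CPM in KO isoproterenol. In the WT pair Timp4 stood at 21.7 CPM with saline and 29.5 CPM with isoproterenol, 1.43-fold higher. Timp2 (112 and 184 CPM; counted as higher with total-count scaling) and Timp3 (148 and 155 CPM) were not counted.

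Of the signals that drive matrix production, several ligands and binding proteins were higher. In the TGF-beta list 5 of 18 genes were higher and 0 lower. The ligands Tgfb2 and Tgfb3 were 2.03-fold (1.76 to 2.35) and 3.48-fold (3.11 to 3.90) higher, whereas Tgfb1 stood at 20.4 and 31.2 CPM and was not counted. The receptor Tgfbr2 was 1.65-fold higher (1.55 to 1.77), and 0 of the 5 Smad genes listed, the carriers and brakes of the signal, were counted. Of 13 genes tested in the BMP, GDF and activin list (19 listed) 4 were higher: Bmp10, Gdf6, Fstl1 and Fstl3. Fstl1, a secreted protein of activated fibroblasts, went from 113 to 773 CPM (6.02-fold, 5.77 to 6.28). The secreted Wnt antagonists Sfrp1, Sfrp2 and Frzb were 4.64-fold, 8.53-fold and 5.95-fold higher, while Wif1 (6.27 and 6.66 CPM) and Axin2, a target of Wnt signalling (4.09 and 4.0 CPM), were not counted. Igf1, a growth factor of heart and muscle, was 3.20-fold higher (2.84 to 3.63), and the EGF family ligand Hbegf and its receptor Egfr 1.71-fold and 2.57-fold. In the renin-angiotensin list Ace, the converting enzyme, was 2.35-fold higher (2.21 to 2.50) and Agtr1a, the receptor of angiotensin II, 2.02-fold lower (1.80 to 2.26). Agtr1a stood at 38.7 and 38.8 CPM in the WT pair.

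Markers of fibroblasts were read beside the matrix genes, since fewer or more cells of a type and less or more RNA per cell cannot be told apart in whole ventricle. Of 13 genes of fibroblast identity 7 were higher and 1 lower (median 0.62), and their summed level was 2642 CPM in KO saline and 3348 CPM in KO isoproterenol (2920 and 2935 CPM in the WT pair). Pdgfra (46.8 and 76.7 CPM) and Tcf21 (7.75 and 13.6 CPM), which define resting cardiac fibroblasts, were not counted, although Pdgfra was with total-count scaling. Gsn, gelsolin, was 1.60-fold lower (1.57 to 1.63), and not counted with that scaling. Of 14 activation genes 12 were higher (median 2.31), with a summed level of 437 CPM in KO saline and 3728 CPM in KO isoproterenol. In the WT pair 5 of the 14 were higher (median 0.39), with a summed level of 552 and 931 CPM. The list shares Postn, Cthrc1, Mfap4 and Col8a1 with the matrix lists. Postn and Cthrc1 were counted as higher in the WT pair too (4.04-fold and 27.1-fold). Meox1, a transcription factor of activated fibroblasts, stood at 12.6 CPM in KO saline and 67.1 CPM in KO isoproterenol (4.68-fold, 4.12 to 5.34), and at 17.1 and 17.4 CPM in the WT pair. Runx1 was 3.90-fold (2.94 to 5.32) and Comp, a cartilage matrix protein of scars, 5.27-fold (4.49 to 6.24) higher, and both stood nearly level in the WT pair (3.12 and 2.99 CPM, 10.5 and 10.04 CPM). Acta2, the smooth muscle actin that marks myofibroblasts, stood at 146 and 172 CPM and was not counted, within a smooth muscle and pericyte list in which 3 of 11 genes were higher and 1 lower. The part of fibroblast number in the matrix ratios was not tested.

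Genes of cell division were higher, most of those of G2 and mitosis and some of those of replication. Of 20 genes of G2 and mitosis 18 were higher and 0 lower, with a median log2 ratio of 2.23, and 0 were counted in the WT pair. Their levels were low: the 20 summed to 39.3 CPM in KO saline and 129 CPM in KO isoproterenol, beside 64.0 and 70.2 CPM in the WT pair, so that the KO saline library was the lowest of the 4. Prc1, which bundles the midzone of the spindle, held 33 reads in KO saline and 193 in KO isoproterenol (6.21-fold, 4.33 to 9.40). Ccna2 and Ccnb1, cyclins of S phase and mitosis, were 5.81-fold (3.74 to 9.79) and 5.38-fold (2.62 to 13.9) higher, and the kinase Plk1 6.39-fold (3.16 to 16.4). Cenpf (15.1 and 11.8 CPM) and Kif20a (2.09 and 4.26 CPM) were not counted. Of 19 genes of DNA replication and the G1 to S step tested (20 listed) 6 were higher, among them Mcm5, a subunit of the replicative helicase, at 2.16-fold (1.68 to 2.80) and Tyms, thymidylate synthase, at 2.90-fold (2.03 to 4.26). Pcna, the sliding clamp, stood at 24.8 and 32.9 CPM.

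Promoters of mitotic genes often hold a CCAAT box, the site of the factor NF-Y, and a CHR element, TTTGAA, through which the DREAM complex represses them outside late cycle. To show both motifs, the 250 bases before a start of Mki67, Top2a and Prc1 are given with the motifs in capitals. They are read 5′ to 3′ on the strand of the gene from RefSeq (GRCm38.p6). These genes were taken, in order of reads in KO isoproterenol, from the higher genes of the list with a window that holds both. On the other strand CCAAT appears as ATTGG, and the CHR letters as TTCAAA.
Mki67: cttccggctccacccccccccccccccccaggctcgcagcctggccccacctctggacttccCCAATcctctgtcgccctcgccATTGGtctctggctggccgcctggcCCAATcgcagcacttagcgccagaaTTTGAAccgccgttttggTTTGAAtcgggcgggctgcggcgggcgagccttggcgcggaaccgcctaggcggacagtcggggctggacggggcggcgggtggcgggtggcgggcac
Top2a: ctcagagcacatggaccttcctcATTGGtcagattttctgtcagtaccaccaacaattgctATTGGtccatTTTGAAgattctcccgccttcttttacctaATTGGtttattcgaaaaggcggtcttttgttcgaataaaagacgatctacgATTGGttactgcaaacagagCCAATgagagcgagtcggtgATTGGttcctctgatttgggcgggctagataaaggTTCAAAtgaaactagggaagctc
Prc1: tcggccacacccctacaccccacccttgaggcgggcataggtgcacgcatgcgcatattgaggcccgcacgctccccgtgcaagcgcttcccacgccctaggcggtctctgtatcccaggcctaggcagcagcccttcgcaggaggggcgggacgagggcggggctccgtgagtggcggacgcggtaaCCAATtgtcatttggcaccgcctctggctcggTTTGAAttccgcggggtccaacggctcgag
They lie at chr7:135716380-135716629 (minus strand), chr11:99024190-99024439 (minus strand) and chr7:80294226-80294475 (plus strand). Mki67 held 3 CCAAT and 2 TTTGAA matches, Top2a 6 and 2, and Prc1 1 of each. In windows of 300 bases (250 before to 50 after a start, any listed start, both strands), 15 of the 17 G2 and mitosis genes matched to RefSeq held CCAAT (88.2%) and 13 held TTTGAA (76.5%). The shares were 42.7% and 13.9% of the 9717 tested genes matched, and both motifs stood together in 12 of the 17 (70.6%) against 6.83%. Of the 15 matched replication genes 1 held TTTGAA (6.67%). A match is a description of letters in this window, not a measured site.

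Part of the macrophage genes were higher. Of 15 general macrophage genes 7 were higher, 1 was lower and 7 were not counted (median 0.68), and their summed level was 659.5 CPM in KO saline and 1311 CPM in KO isoproterenol (718.9 and 684.5 CPM in the WT pair). Lyz2, lysozyme, stood at 159 CPM in KO saline and 445 CPM in KO isoproterenol (2.46-fold, 2.37 to 2.56), and the complement chain C1qb at 46.6 and 124 CPM (2.34-fold, 2.18 to 2.52). Markers of long-lived resident macrophages went otherwise: Timd4 was 2.33-fold lower (1.54 to 3.66; not counted with total-count scaling), and Lyve1 (15.5 and 13.1 CPM), Cd163 (28.0 and 21.8 CPM) and Folr2 (12.5 and 14.5 CPM) were not counted. Of 12 genes tested of recruited or lipid-associated macrophages (15 listed) 8 were higher and 1 lower (median 2.39), although Fn1 and Vcan on that list are also made by fibroblasts and the lower gene, Cd36 (not counted with total-count scaling), by muscle and vessels. Trem2 went from 1.87 to 16.6 CPM (7.70-fold, 5.64 to 11) and Gpnmb from 1.96 to 17.4 CPM (7.72-fold, 5.69 to 10.9). In the WT pair 5 of these 12 genes were higher and 0 lower (median 0.49).

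Other immune genes differed in direction. The chemokine list had 5 of 14 tested genes higher and 3 lower: Ccl8, which draws monocytes, held 21 reads in KO saline and 141 in KO isoproterenol (7.08-fold, 4.55 to 12.0), and Cxcl10 was 3.11-fold higher (2.03 to 5.03). Ccl11, the eosinophil chemokine, was 3.92-fold lower (2.30 to 7.4), and Cxcl12, the stromal chemokine, 1.65-fold lower (1.58 to 1.73), at 221 and 152 CPM, but not counted with total-count scaling. Genes of MHC class II, which present antigen, had 3 of 7 lower and 0 higher, or 0 lower with total-count scaling, with Cd74 at 188 and 126 CPM in the KO pair and 198 and 114 CPM in the WT pair. Of 16 interferon-induced genes 2 were higher (Mx1 and Ifi27l2a), or 6 with total-count scaling. Neutrophil and lymphocyte genes were near the limit of detection: Ly6g had 0 reads in all 4 libraries, and 4 of 12 lymphocyte genes passed the level limit, of which Jchain, the joining chain of plasma cells, was 2.58-fold lower (1.84 to 3.74).

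The fetal program of cardiomyocytes was higher in part. Of 15 natriuretic peptide and fetal genes tested (16 listed) 9 were higher and 0 lower, with a median of 0.80 (0.18 in the WT pair). Nppa, the atrial natriuretic peptide, stood at 65.3 CPM in KO saline and 700.5 CPM in KO isoproterenol, beside 68.5 and 123 CPM in the WT pair. Nppb, the related ventricular peptide, stood at 127 and 232 CPM (1.60-fold, 1.52 to 1.68), against 73.3 and 42.9 CPM in the WT pair, where the treated library was the lower. Ankrd1, a stress protein of the sarcomere, was 2.77-fold higher in KO (2.73 to 2.80) and 3.25-fold in WT (3.20 to 3.30). Uchl1, a ubiquitin hydrolase, was 5.72-fold higher (4.69 to 7.09) and Rcan1, a target and brake of calcineurin, 2.01-fold (1.90 to 2.13). The slow myosin heavy chain Myh7 was not counted (253 and 323 CPM, 1.12-fold, 1.08 to 1.16), nor were Xirp1, Fhl2, Csrp3, Nes or Acta2, although Csrp3 was with total-count scaling. Atrial genes, listed as markers of another chamber, had 4 of 7 higher (Bmp10, Gja5, Dkk3 and Myl4), with a summed level of 159.8 CPM in KO saline and 281 CPM in KO isoproterenol against 251.3 and 200.9 CPM in the WT pair. The defining atrial genes Myl7 (49.1 and 63.9 CPM) and Sln (11.1 and 15.9 CPM) were not counted, and the part of atrial tissue in the ratios of Nppa and Bmp10 was not tested.

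Promoters of strongly inducible genes often hold a TATA box, and Postn and Nppa, a matrix and a cardiomyocyte gene among the 30 higher genes named by their interval bound, are shown with TATAAA in capitals in the 250 bases before a RefSeq start (GRCm38.p6, plus strand, 5′ to 3′).
Postn: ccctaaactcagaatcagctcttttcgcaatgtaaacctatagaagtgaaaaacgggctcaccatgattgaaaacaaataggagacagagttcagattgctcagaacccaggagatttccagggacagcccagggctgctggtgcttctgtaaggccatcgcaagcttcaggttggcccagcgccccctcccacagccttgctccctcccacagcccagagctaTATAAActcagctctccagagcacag
Nppa: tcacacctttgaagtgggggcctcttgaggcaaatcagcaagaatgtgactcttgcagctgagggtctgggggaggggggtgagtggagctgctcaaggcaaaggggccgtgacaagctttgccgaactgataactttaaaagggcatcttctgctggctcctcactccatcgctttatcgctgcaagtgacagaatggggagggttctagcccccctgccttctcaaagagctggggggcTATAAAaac
The windows are chr3:54360857-54361106 and chr4:148000472-148000721. The match begins at -26 bases from that start in Postn and at -9 bases in Nppa. Both genes were picked among those with a match, which is a description of letters and not a measured TATA box. Windows of 300 bases were searched on both strands, and a match counted at any distance from the start. There 9 of the 19 matched genes among the 30 held TATAAA (47.4%), against 8.86% of all tested genes matched. The share was 15% of the 687 matched higher genes and 10.8% of the 408 matched lower genes.

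Part of the cytoskeleton genes were higher and part of the adult sarcomere genes lower. Of 20 cytoskeleton genes 11 were higher and 0 lower (median 0.76), against 0 in the WT pair. Des, desmin, the intermediate filament of muscle, stood at 1967 CPM in KO saline and 4380.3 CPM in KO isoproterenol (1.96-fold, 1.94 to 1.98), and at 1742 and 1860.4 CPM in the WT pair. The tubulins Tubb2b and Tubb2a were 5.73-fold (4.20 to 8.10) and 2.13-fold (1.91 to 2.38) higher, and Vim, vimentin of non-muscle cells, 2.74-fold (2.65 to 2.83). Of 20 adult sarcomere genes 9 were lower and 0 higher, or 5 lower with total-count scaling (median -0.33, or -0.15). Myom2, an M-band protein, stood at 1553 and 649.9 CPM (2.72-fold lower, 2.66 to 2.77), and Tcap, which caps titin at the Z-disc, was 1.89-fold lower (1.85 to 1.93). The light chains Myl2 and Myl3 were 2.10-fold and 1.74-fold lower and Myh6, the adult heavy chain, 1.53-fold (1.53 to 1.54; not counted with total-count scaling), while Tnnt2, Actc1, Actn2, Mybpc3 and Ttn were not counted.

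Genes of ion transport differed by gene and list. In calcium handling 3 of 15 tested genes were lower and 0 higher, or 3 lower and 1 higher with total-count scaling. Atp2a2, the pump that refills the sarcoplasmic reticulum, stood at 13804 CPM in KO saline and 5494 CPM in KO isoproterenol, against 13826 and 8441 CPM in the WT pair. Hrc, a calcium-binding protein of that store, was 3.03-fold lower (2.96 to 3.11) and Jph2, which tethers it to the cell membrane, 1.87-fold (1.81 to 1.93). Ryr2 (1388 and 1445 CPM), the release channel, and Casq2 (1013 and 1111 CPM), the main buffer, were not counted. Of 18 potassium channel genes 5 were lower and 1 higher, or 3 and 2 with total-count scaling. Beside Kcnv2, a silent subunit, the lower genes were Kcnip2, the subunit of the transient outward current (196 and 62.8 CPM), Abcc9 (2.28-fold, 2.19 to 2.36), Kcnj3 and Kcnj11, the last pair not with total-count scaling. Kcna4, a channel of the immature outward current, held 19 and 61 reads, 3.39-fold higher (2.04 to 6.12). Of 15 genes tested of sodium channels, calcium channels and gap junctions (16 listed) 2 were higher and 3 lower (median 0.07). Of these the sodium channel subunits Scn4a and Scn4b were 4.53-fold (3.91 to 5.28) and 9.94-fold (8.55 to 11.7) lower, and the pacemaker channel Hcn2 2.18-fold (1.93 to 2.48). Gja5, the connexin of conduction tissue and atria, was 2.19-fold higher (1.78 to 2.71), and Gja1, the ventricular connexin, stood at 488 and 584 CPM.

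Of 20 genes of beta-adrenergic and cAMP signalling, the pathway that the drug acts on, 1 was higher and 2 lower, against 7.16% and 4.42% of all genes tested, or 3 and 2 with total-count scaling. The receptor Adrb1 stood at 18.5 CPM in KO saline and 14.4 CPM in KO isoproterenol (1.46-fold lower, 1.25 to 1.71), and at 21.1 and 12.3 CPM in the WT pair, and was not counted. Grk5, a kinase that silences adrenergic receptors, was 2.16-fold higher (1.96 to 2.39) and nearly level in the WT pair (27.1 and 28.0 CPM). Adra1a, the alpha-1A receptor, was 4.77-fold lower (3.65 to 6.40). Gnas was also counted as lower, but its level of 14 and 5.33 CPM is uncertain, since transcripts overlap at its locus. Immediate early genes, which answer to acute stimulation, had 1 of 18 tested higher (Egr2, 4.39-fold, 2.95 to 6.93) and 2 lower (Fos and Nr4a1, of which Fos was not counted with total-count scaling). In the WT pair 6 of the 18 were lower and 0 higher (median -0.33, against -0.20 in the KO pair).

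**Figure D3:**
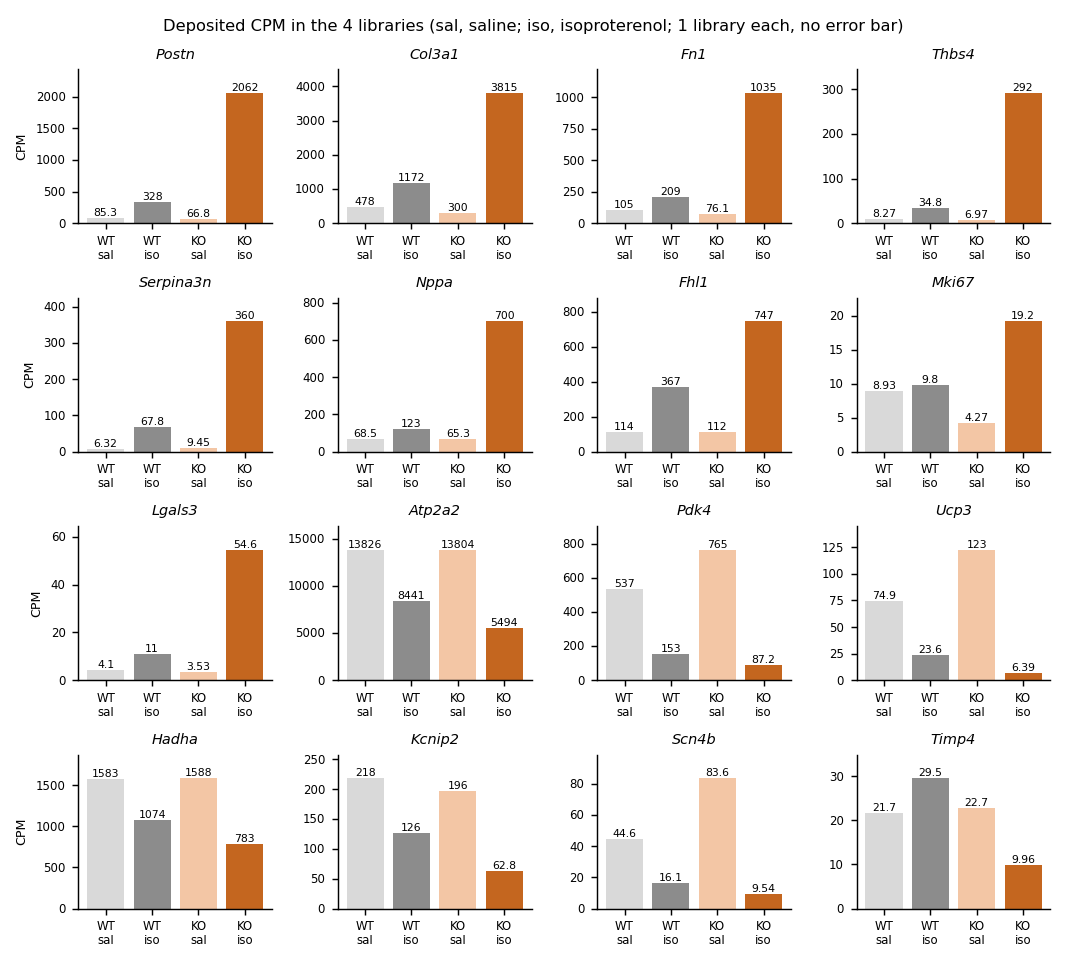
Deposited CPM of 16 genes in the 4 libraries, 1 bar per library with no error bar because each group holds 1 library, on axes that start at 0. Matrix and fetal genes are highest in KO isoproterenol, Ucp3, Pdk4, Scn4b, Atp2a2, Hadha and Kcnip2 are lowest there, and Timp4 is the highest of the 4 in WT isoproterenol (29.5 CPM) and the lowest in KO isoproterenol (9.96 CPM).

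Genes of fatty acid use were lower as a class. Of 24 genes of fatty acid uptake and beta-oxidation 22 were lower and 0 higher, or 14 lower with total-count scaling, with a median log2 ratio of -0.98 (-0.80), and all 24 lay below 0 under both. The WT pair had 2 of the 24 lower and a median of -0.32. From uptake to the last cycle step, Fabp3, the fatty acid carrier of heart, stood at 1844 and 1039 CPM (2.02-fold lower, 1.98 to 2.05), and Acsl1, which activates fatty acids, at 1135 and 578 CPM (2.23-fold lower, 2.18 to 2.28). The carnitine step had Cpt1a at 2.25-fold (2.07 to 2.45) and Cpt2 at 2.40-fold (2.28 to 2.52) lower, and the thiolase Acaa2 was 2.37-fold lower (2.31 to 2.44). Echs1 (306 and 267 CPM) and Acads (204 and 164 CPM), enzymes of short chains, were the pair not counted. Of 16 PPAR-responsive genes 12 were lower and 1 higher (median -1.33), against 6 and 0 in the WT pair (median -0.52). Among them Slc25a34 was 3.84-fold lower (3.6 to 4.10) and Mlycd, which removes the brake malonyl-CoA, 2.59-fold (2.40 to 2.79). Ucp2, the carrier of many cell types, was the gene that was higher, 2.28-fold (2.14 to 2.42), while its muscle relative Ucp3 went from 123 to 6.39 CPM. Their regulators had smaller ratios, all 15 below 1 under TMM. Ppara stood at 24.3 and 19.0 CPM and Ppargc1a at 107 and 107 CPM, and of 15 regulators 3 were lower (Esrrb, Nr1d1 and Mlxipl), or 1 (Mlxipl) with total-count scaling.

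Lipid synthesis and storage divided by enzyme. Of 17 genes 4 were higher and 9 lower. The desaturases went opposite ways: Scd1 and Scd2 were 3.40-fold (3.06 to 3.79) and 3.39-fold (3.08 to 3.74) higher, and Scd4, the heart form, was 36.5-fold lower (22.3 to 69.5) in KO and 60.5-fold lower (32.4 to 149) in WT. Dgat2, which makes triglyceride, stood at 241 and 82.1 CPM (3.34-fold lower, 3.16 to 3.54), and Gpam, at the entry of that route, was 2.85-fold lower (2.70 to 3.01). The lipases Lpl and Lipe were 2.18-fold (2.16 to 2.20) and 2.24-fold (1.99 to 2.53) lower.

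Other fuels showed smaller ratios. The counts below are read beside 7.16% higher and 4.42% lower among all genes tested (10.3% and 2.55% with total-count scaling). Small counts near these shares, such as that of complex I, are not read as a result about the list. Catabolism of branched-chain amino acids and ketones had 9 of 19 genes lower and 0 higher, or 5 lower and 1 higher (Bdh1) with total-count scaling. Mccc2 and Acat1 were 2.04-fold (1.86 to 2.24) and 1.94-fold (1.88 to 2.0) lower. Of 17 TCA cycle genes 5 were lower, or 2 (Idh2 and Suclg2) with total-count scaling, and all 17 had ratios below 1 under TMM. Complex I of the respiratory chain had 1 of 23 lower, or 0 with total-count scaling, and complexes II to V 3 of 27, or 2 (Cox5a and Cox6a2). The medians of these respiratory lists were -0.42 and -0.41, or -0.23 and -0.22. Glycolytic genes were not lower with them. Of 24 genes of glucose uptake, glycolysis and glycogen 3 were higher and 2 lower (median 0.20). Pfkp, the platelet phosphofructokinase, was 2.15-fold higher (2.03 to 2.28), Pgam1 and Pgk1 1.79-fold and 1.56-fold, whereas Pfkfb1 was 4.02-fold (3.13 to 5.28) and Ldhb, the lactate dehydrogenase chain typical of heart, 1.76-fold (1.73 to 1.80) lower. The glucose transporter Slc2a4 (418 and 332 CPM) was not counted. Of 13 genes encoded in mitochondrial DNA 5 were lower and 0 higher, or 4 lower with total-count scaling (median -0.72), beside the lower share of such reads in the treated KO library given above. In NAD metabolism Nampt, the salvage enzyme, was 2.07-fold lower (1.98 to 2.18), beside the higher Nmrk2. Ckb, the brain form of creatine kinase, was 2.0-fold higher (1.83 to 2.18) and Ckm, the muscle form, 1.68-fold lower (1.65 to 1.72), which was not counted with total-count scaling.

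**Figure D4:**
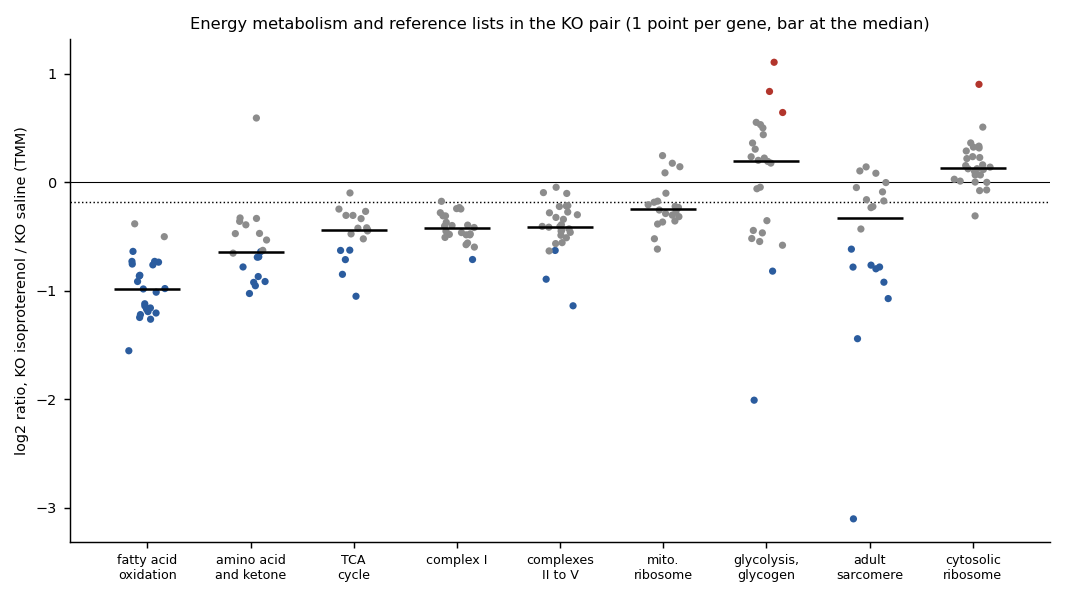
Log2 ratio of KO isoproterenol over KO saline for each gene of 9 lists of energy metabolism and reference genes, with 1 point per gene, colour for higher (red) and lower (blue) genes and a bar at the median. The 24 fatty acid genes all lie below 0 with a median of -0.98; the dotted line marks no change under total-count scaling.

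In the secretory route and protein turnover the counts differed by list, beside 7.16% higher among all genes tested. In import and folding of the endoplasmic reticulum 4 of 24 genes were higher and 0 lower, or 8 with total-count scaling: Pdia5, Pdia4 and Pdia3, disulfide isomerases, were 2.54-fold, 1.70-fold and 1.63-fold higher, and Sec61b, a part of the translocon, 2.42-fold (1.95 to 3.04). The stress chaperone Hspa5 stood at 492 and 432 CPM. Of 26 genes of Golgi transport 2 were higher, Kdelr3 (3.05-fold, 2.54 to 3.68) and Tmed3 (2.13-fold, 1.90 to 2.40). Of 22 genes of autophagy and lysosome 6 were higher and 1 lower, or 8 and 0 with total-count scaling. Among them the cathepsins Ctsk, Ctss, Ctsz and Ctsb were 4.82-fold, 3.06-fold, 2.42-fold and 1.98-fold higher. The proteasome list had 0 of 20 genes counted in either direction, with a median of -0.14 that became 0.05 with total-count scaling, and the mitochondrial ribosome 0 of 20. Of 26 cytosolic ribosomal proteins 1 was higher: Rpl3 stood at 119 and 253 CPM (1.87-fold, 1.78 to 1.96). Its muscle paralogue Rpl3l, named after its value was seen, was 2.46-fold lower (2.33 to 2.60), at 207 and 96.0 CPM. Of 12 serpins listed, inhibitors of proteases, 11 were tested and 8 were higher, among them Serpina3n (9.45 and 359.8 CPM) and Serpinf1 (3.54-fold, 3.27 to 3.84).

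Counts for adhesion, cell death and stress genes are likewise read beside 7.16% higher among all genes tested. Of 19 genes of integrins and focal adhesions tested (20 listed) 6 were higher and 0 lower: the collagen receptor chain Itga11 stood at 5.36 CPM in KO saline and 15.2 CPM in KO isoproterenol (2.50-fold, 2.02 to 3.12), and the fibronectin receptor chain Itga5 was 1.71-fold higher (1.60 to 1.82). Of 18 cell death genes 3 were higher, among them Tnfrsf12a, the receptor of TWEAK, 2.17-fold (1.97 to 2.40), and Cdkn1a, the cycle inhibitor p21, 3.71-fold (3.25 to 4.25). Cdkn1a was counted in the WT pair as well (1.75-fold, 1.54 to 2.0). Of 22 antioxidant genes 4 were higher, among them the secreted peroxidase Gpx3, at 153 and 443 CPM (2.55-fold, 2.45 to 2.65), and Hmox1, heme oxygenase, 2.06-fold (1.74 to 2.46). Gpx3 stood at 146 and 151 CPM in the WT pair. Of 20 genes tested of the integrated stress response and tRNA synthetases (23 listed) 1 was higher, Mthfd2, a mitochondrial enzyme of folate metabolism (3.20-fold, 2.46 to 4.24), and 5 were with total-count scaling. Of 16 heat shock genes 0 were higher and 1 was lower, or 2 and 0 with total-count scaling. Of 18 cardiac transcription factors tested (19 listed) Tbx20 was higher (1.95-fold, 1.85 to 2.05) and Hopx lower (2.03-fold, 1.90 to 2.17), while Gata4 stood at 132 and 143 CPM.

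Some clock genes differed. Of 16 clock genes 1 was higher and 5 lower, against 7.16% and 4.42% of all genes tested. With total-count scaling 2 were higher and 3 lower, against 10.3% and 2.55%. Arntl, the activator BMAL1, stood at 6.49 CPM in KO saline and 15.7 CPM in KO isoproterenol (2.13-fold higher, 1.74 to 2.61), against 4.56 and 2.99 CPM in the WT pair. The repressor Per1 was 2.22-fold lower (2.03 to 2.44), and the output factors Dbp, Hlf and Ciart 1.87-fold, 2.08-fold and 2.04-fold lower (Ciart was not counted with total-count scaling). Among the 16, 0 were counted in the WT pair. The hour at which hearts were taken is not given in the sources used here.

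**Figure D5:**
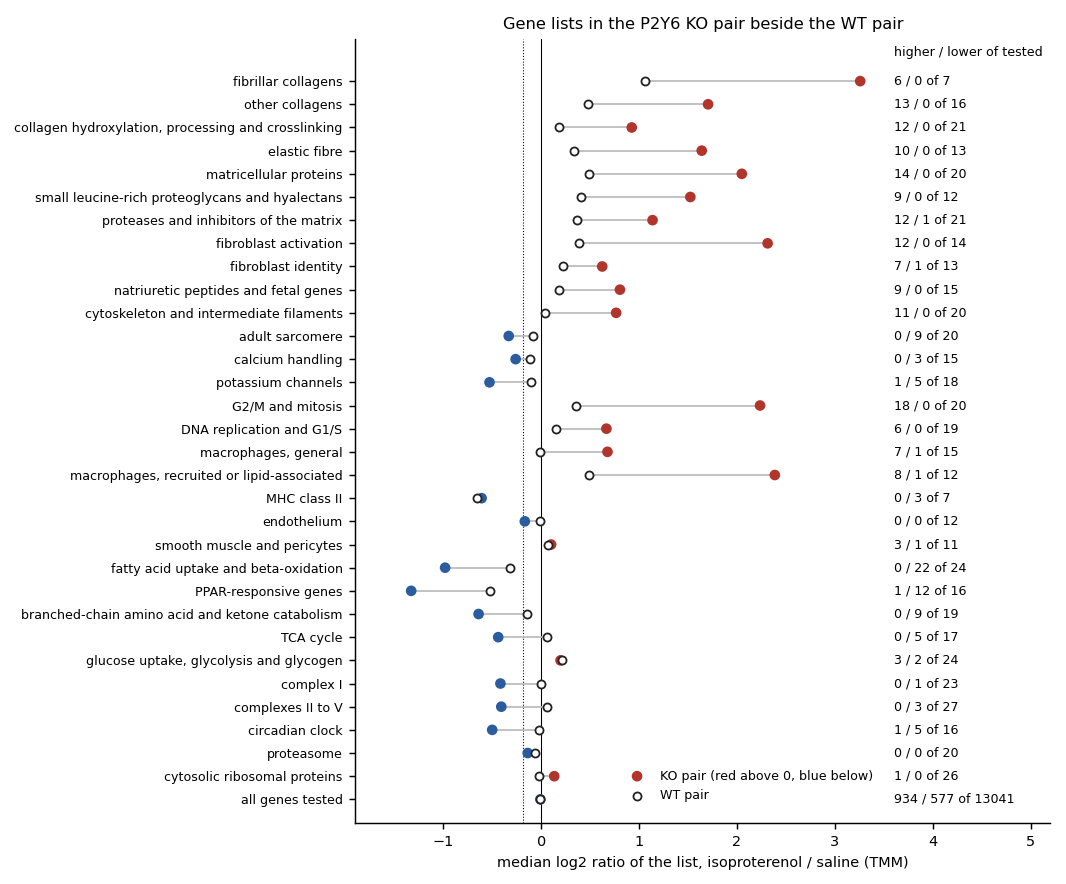
Median log2 ratio of isoproterenol over saline for gene lists and for all genes tested, in the KO pair (filled points, red above 0 and blue below) and the WT pair (open points), with the number of genes higher and lower of those tested in the KO pair at the right. Fibrillar collagens (3.26) have the highest median and PPAR-responsive genes (-1.33) the lowest; the dotted line marks no change under total-count scaling.

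Markers of further cell types and tissues stood as follows. Endothelial genes had 0 of 12 counted in either direction, with a summed level of 1753 CPM in KO saline and 1687 CPM in KO isoproterenol and a median of -0.17 that became 0.02 with total-count scaling. Of 9 skeletal muscle genes 2 passed the level limit, Ckm and Tnnt3, and Myh4 and Myod1 had 0 reads in all 4 libraries. Schwann, mast, fat and erythroid lists had 0 genes counted, and of 4 mesothelial genes tested Msln was higher (2.50-fold, 1.73 to 3.73). Among receptors of nucleotides and enzymes that degrade them, 2 of 17 tested were higher and 0 lower, against 7.16% and 4.42% of all genes tested. With total-count scaling 3 were higher, against 10.3% of all genes tested. The median log2 ratio of this list was -0.06, and counts this small are not read as a result about the list. Panx1, the channel through which cells release nucleotides, stood at 1.83 CPM in KO saline and 9.59 CPM in KO isoproterenol (4.57-fold, 3.28 to 6.61), and Enpp1, an ectoenzyme that splits them, at 7.58 and 44.7 CPM (5.18-fold, 4.41 to 6.15). P2ry2, a related receptor for UTP, stood at 41.8 and 33.5 CPM and was not counted.

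Set beside the WT pair, which shares no library with it, the KO response had the same direction in most genes and the larger ratio. Of the 934 genes higher in KO, 796 (85.2%) had a WT ratio above 1, against 48.5% of all tested genes, and their median log2 ratios were 1.38 in KO and 0.33 in WT. Of these 934, 90 were counted as higher in WT, which is 9.64% of the KO list and 76.9% of the 117 WT genes. Of the 577 genes lower in KO, 537 (93.1%) had a WT ratio below 1, against 51.5% of all tested genes, with medians of -1.05 and -0.35. Of these 577, 73 were counted as lower in WT, 12.7% of the KO list and 70.9% of the 103 WT genes. These genes were chosen by their KO ratio, so a larger median in KO follows in part from the choice.

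The difference of both log2 ratios, KO minus WT, was given a counting interval but could not be tested, since the design has no error term for it. Its interval lay beyond 1.5-fold, with the larger ratio in KO, for 481 of the 934 higher and 190 of the 577 lower genes, and held 0 for 80 and 55. With the larger ratio in WT it lay beyond 1.5-fold for 0 genes of either list. Both lists were chosen by their KO ratio, so these counts too follow in part from the choice. The difference was 3.98 (3.42 to 4.55) for Serpinb1a, 3.06 (2.74 to 3.38) for Thbs4, 2.51 (2.41 to 2.61) for Fn1 and 3.15 (2.87 to 3.42) for Ltbp2. It was -2.85 (-3.15 to -2.55) for Ucp3 and -1.58 (-1.67 to -1.49) for Pdk4 among the lower genes. The saline libraries differed as well, and each difference includes the gap between them. KO saline and WT saline held 76.1 and 104.6 CPM of Fn1, 123 and 74.9 CPM of Ucp3, and 765 and 537 CPM of Pdk4. Serpinb1a stood there at 2.09 and 2.81 CPM, Thbs4 at 6.97 and 8.27 CPM, and Ltbp2 at 9.67 and 11.8 CPM. The part of the saline levels was not tested. Other strong responses differed little or had intervals that held 0: the difference was 0.06 (-0.67 to 0.79) for Acot1, 0.73 (-0.50 to 1.96) for Scd4 and -0.23 (-0.26 to -0.20) for Ankrd1. Cyp26b1, which degrades retinoic acid and was chosen after its values were seen, was counted in opposite directions, 2.52-fold higher (2.05 to 3.13) in KO and 9.09-fold lower (6.70 to 12.9) in WT. Total-count scaling moves the KO ratios up and the WT ratios down, so that differences above 0 grow and those below 0 shrink. Small differences below 0, such as that of Ankrd1, change sign with it.

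A model with a genotype and a treatment term, fitted to all 4 libraries (limma on log2(CPM + 1), 1 residual degree of freedom) called 376 genes by isoproterenol at an adjusted p below 0.05 (247 higher, 1.89%, and 129 lower, 0.989%). It concerns both genotypes together, and with TMM-scaled values it called 2 genes and with edgeR (quasi-likelihood, recovered reads) 25, so no statement above rests on it. Counts of genes with near-identical copies, such as Acot1, Serpina3n, Scd1, the tubulins and the small mitochondrial genes, are uncertain, because the counting settings were not given in the sources used here.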

How the data were processed

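Poly(A) RNA from heart ventricles was sequenced after a stranded library preparation, per the labels' protocols. The submitters' processing notes name HTSeq, mm10 and GRCm38.p4; the aligner, the annotation release and the counting settings were not given in the sources used here. The authors deposited 1 table of CPM values with 1 column per group, and a column named by genotype alone was read as that genotype with saline. All CPM values (100% within 0.01 reads) were whole multiples of the value of 1 read, so reads were recovered and summed to 18771198 to 25637369 per library, which bounds counting error only.

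Ratios used recovered reads with a prior of 0.5 reads, TMM factors (edgeR 4.0.16) and exact conditional 95% intervals (scipy 1.17.1), over genes with a mean of at least 1 CPM. The differences of ratios and the additive fit (limma 3.58.1, R 4.3.3, Benjamini-Hochberg adjustment, threshold 0.05) covered the same genes. Both procedures were tested on simulated data. For the additive fit the simulation gave both genotypes the same levels and the same response, so it does not show how the fit behaves where they differ. The alternatives were other scalings (total counts, DESeq2 1.42.0 size factors), level limits, fold limits and pseudocounts. Named were the 30 genes in each direction whose interval bound lay farthest from no change, members of 70 gene lists, and P2ry6, except a few that are not reported here. The comparison and the lists were chosen with earlier results of these data known. Gene names are those of the deposited table, gene classes came from a reference annotation that held 13006 of the 13041 identifiers, and promoter sequences came from RefSeq (GRCm38.p6), where 9717 matched.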

Additional observations from a re-analysis of the deposited data

Results flagged for a closer look

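Cyp26b1, an enzyme that degrades retinoic acid, had ratios of opposite sign in the KO and WT pairs, each with its whole counting interval beyond 1.5-fold. It stood at 5.62 CPM in KO saline and 16.1 CPM in KO isoproterenol, a log2 ratio of 1.33, and at 19.6 CPM in WT saline and 2.03 CPM in WT isoproterenol, a log2 ratio of -3.19. The KO minus WT difference was 4.52 (3.98 to 5.06). The saline libraries differed from each other as well, WT above KO. The difference was not tested, because each group held 1 library.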

How the results depend on the processing

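Of the 934 higher and 577 lower genes of the KO pair, the counts became 602 higher with a mean of at least 5 CPM, 466 and 173 with the interval beyond 2-fold, and 149 lower with a 2-fold ratio of log2(CPM + 1) values. With total counts 332 were lower. Both counts stayed within 1.5 times with DESeq2 size factors (944 and 564), without mitochondrially encoded genes (934 and 578) and without the level limit (1096 and 636). Only the count named here did so with total counts (1342 higher), log2(CPM + 1) values (809 higher) and a mean of at least 5 CPM (481 lower). Among 1054 listed or named genes total-count scaling lost 40 calls, gained 58 and reversed 0, and 11 medians changed sign with it, all of lists between -0.17 and 0 under TMM or of all genes. The additive fit called 376 genes, 2 with CPM divided by TMM factors and 25 with edgeR, and the cause was not tested. No paired analysis was possible because each group held 1 library and the columns carry no replicate number. Leaving out a library was not possible either. Genes with few reads have wide intervals, so a low gene that was not counted may still differ.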

Other observations

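The genes of this section were chosen after their values were seen, and none is used as support. Several interferon-inducible GTPases of cell defence were lower in the KO pair while 0 of the 16 listed interferon-induced genes were lower. Igtp stood at 119.9 CPM in KO saline and 59.0 CPM in KO isoproterenol (2.31-fold lower, 2.15 to 2.48), Irgm2 was 2.25-fold (2.12 to 2.38) and Iigp1 2.36-fold (2.25 to 2.48) lower. In the WT pair the same genes were nearly level, at 139.7 and 139.7 CPM for Igtp, 202 and 192 CPM for Irgm2 and 274 and 248 CPM for Iigp1. Other members of the family were not counted in KO, such as Gbp4 (44.3 and 37.9 CPM) and Gbp5 (20.1 and 20.1 CPM).

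Some genes of other tissues or of immature muscle were high in KO isoproterenol and near their saline level in WT isoproterenol. Myl1, a light chain of fast skeletal and fetal muscle, stood at 21.8 and 93.1 CPM in the KO pair (3.75-fold, 3.39 to 4.15) and at 23.1 and 21.1 CPM in the WT pair. Krt18, a keratin of simple epithelia, held 10 and 89 reads in the KO pair (9.17-fold, 4.97 to 20.7), and Tubb3, a tubulin typical of neurons, 20 and 199 reads (10.5-fold, 6.75 to 17.9). Dio2, which activates thyroid hormone, was 7.24-fold higher (5.49 to 9.87) and Piezo2, a channel opened by stretch, 12.0-fold (8.29 to 18.7). Penk, the precursor of enkephalins, went the other way, at 3.61 and 0.906 CPM (4.44-fold lower, 2.67 to 8.16), and stood at 2.96 and 2.85 CPM in the WT pair. Myh7b, a myosin whose gene also carries a microRNA of slow muscle, was 3.43-fold lower (3.17 to 3.72) in KO and 1.65-fold (1.54 to 1.76) in WT. The differences between the pairs were not tested.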
